A study of Homo sapiens with 18 samples.

Results

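The genes described here encode the main building blocks of the basement membrane: the laminin chains LAMA1, LAMA3, LAMB1, LAMB3 and LAMC1, the nidogens NID1 and NID2, and the collagen IV chains COL4A1 and COL4A2. They were taken as every probe set, the group of short probes that measures 1 transcript on the array, whose platform annotation gives exactly 1 of these 9 symbols. Of the 9 genes, 8 had such a probe set, with 15 probe sets among the 54675 on the array, and LAMA3 was not analysed here. The genes were chosen with their levels in these same samples known, so their values are given as a description and no test of them is read. Of the 15 probe sets, 12 passed the filter on low signals, as did 27307 on the whole array, and these represented 12319 genes.

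A basement membrane is a thin sheet of matrix on which epithelial cells rest. Laminins are trimers of an alpha, a beta and a gamma chain that polymerise at the cell surface, collagen IV forms a second network of triple helices, and nidogens bind both and link them. In the intestine, basement membrane proteins come from the epithelium as well as from the mesenchyme beneath it, and the laminin alpha chains differ along the crypt and the villus.

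All samples were Caco-2 cells, an established human colon carcinoma line widely used as a model of intestinal epithelium. Control cells were kept in DMEM and depleted cells in DMEM lacking riboflavin, vitamin B2, from which cells make the flavin cofactors FMN and FAD. Both media held foetal calf serum, penicillin and streptomycin, and the protocol mentions dialysed serum of the same batch without saying which samples received it. Total RNA was taken at 24, 48 and 72 h, with 3 arrays for each medium and time, 18 arrays in all. The numbers in the sample titles run through the 6 groups 3 times, so a replicate number stands for a set of 6 arrays, 1 from each group. Pairs below are a depleted and a control array from the same set and the same hour.

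Signals are MAS5 values on a linear scale, with a trimmed mean of 100 on all 18 arrays, and differences are on the scale log2(signal + 16), which understates changes of low signals. Probe sets differ in how brightly they bind, so levels are compared only within a probe set. The median signal was higher on the arrays of set 2, at 25.7 to 31.3, beside 18.4 to 22 for set 1 and 19.1 to 23.3 for set 3. The upper quartiles of set 2 (85 to 99.9) overlapped those of set 3 (90.1 to 102.2). The strongest signal of each set 2 array lay between 27380.2 and 31409.8. On every other array it lay between 6904.8 and 8574.5. Nothing in the labels says that replicates came from separate cultures, so a p-value reflects only how far these arrays spread, and their small number limits the precision of every value. In cultures measured as a whole, fewer cells making an RNA and less RNA per cell cannot be told apart. Of the 8 epithelial markers listed, 8 passed the filter, with summed signals between 20692.9 and 32865.2 on control arrays and between 19859.8 and 30192 on depleted ones. Of 9 fibroblast markers 5 passed, and the signals of all 9 summed to 509.9 to 798.8 on control and 408.8 to 668.9 on depleted arrays. Of 7 endothelial markers 1 passed, PECAM1, and the signals of all 7 summed to 73.6 to 153.1 and 83.2 to 131.4. These sums include the markers under the filter, and the PECAM1 probe set 1559921_at alone gave 22.4 to 71.5.

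The stretches just before the start sites of these genes are shown because COL4A1 and COL4A2 share one, and because NID1, NID2 and LAMB1 were lower and LAMB3 higher in depleted cells. COL4A1 and COL4A2 lie head to head and are transcribed away from each other, with 126 bases between their start sites (chr13:110307158-110307283, shown on the + strand, in the direction of COL4A2). For the others the 250 bases before the start are given in the direction of the gene: NID1 at chr1:236065091-236065340 (- strand), NID2 at chr14:52069060-52069309 (- strand), LAMB1 at chr7:108003162-108003411 (- strand) and LAMB3 at chr1:209652426-209652675 (- strand, the furthest upstream of 3 listed starts). All are from RefSeq on GRCh38.p14, which listed 8 of the 9 genes, and LAMA1 had no entry. Capitals mark CCAAT or its reverse complement ATTGG, and GGGCGG (the GC box) or its reverse complement CCGCCC.
COL4A1 and COL4A2: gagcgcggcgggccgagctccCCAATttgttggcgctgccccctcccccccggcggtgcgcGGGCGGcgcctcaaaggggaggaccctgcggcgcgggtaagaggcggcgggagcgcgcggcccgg
NID1: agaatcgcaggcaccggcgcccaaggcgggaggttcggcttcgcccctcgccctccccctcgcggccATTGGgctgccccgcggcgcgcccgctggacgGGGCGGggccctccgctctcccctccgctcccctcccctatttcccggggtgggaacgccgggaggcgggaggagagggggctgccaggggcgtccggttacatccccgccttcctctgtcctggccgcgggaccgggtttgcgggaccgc
NID2: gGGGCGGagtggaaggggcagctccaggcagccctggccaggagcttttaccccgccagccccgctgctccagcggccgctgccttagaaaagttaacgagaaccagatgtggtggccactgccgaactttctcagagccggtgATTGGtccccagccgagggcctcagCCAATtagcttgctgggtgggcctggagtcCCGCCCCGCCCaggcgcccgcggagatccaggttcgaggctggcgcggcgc
LAMB1: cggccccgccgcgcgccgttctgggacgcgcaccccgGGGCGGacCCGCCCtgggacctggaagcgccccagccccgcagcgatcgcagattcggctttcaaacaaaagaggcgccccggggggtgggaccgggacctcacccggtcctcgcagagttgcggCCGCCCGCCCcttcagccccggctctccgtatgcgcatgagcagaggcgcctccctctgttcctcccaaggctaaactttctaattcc
LAMB3: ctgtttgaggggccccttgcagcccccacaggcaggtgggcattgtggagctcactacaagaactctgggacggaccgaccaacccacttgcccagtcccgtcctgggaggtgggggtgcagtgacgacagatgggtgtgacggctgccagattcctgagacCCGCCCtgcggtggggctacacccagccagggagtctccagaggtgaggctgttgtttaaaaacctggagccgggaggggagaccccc

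The 5 stretches were rich in G and C, at 80.2% between the collagen IV genes, 76.4% for NID1, 68% for NID2, 70.4% for LAMB1 and 64% for LAMB3. The median was 58% over the windows of 250 bases of the 35116 entries of the table. No median was taken for windows of 126 bases, the length of the collagen IV stretch. Both strands were searched, and overlapping matches were counted separately. CCAAT was found once between the collagen IV genes, once before NID1 and in 2 places before NID2, and no match lay in the windows of LAMB1, LAMB3 or LAMC1. It occurs in 32% of all windows of 250 bases and in 21.1% of windows of 126 bases. The GC box was found in every one of these windows, with 1 match between the collagen IV genes, 1 for NID1, 3 for NID2, 4 for LAMB1, 1 for LAMB3 and 3 for LAMC1, and in 42.6% of all windows of 250 and 34.6% of those of 126 bases. The AP-1 letters TGANTCA (6.57% and 3.5% of all windows) and the TATA letters TATAAA (10.7% and 5.87%) gave no match in them. A match only says that the letters are there.

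Averaged over the 3 times, LAMA1, both tested probe sets of NID1 and NID2 were lower in depleted cells, with log2 differences of -0.81 to -1.31. LAMB1 was lower in nearly every pair, LAMB3 was higher in all, and LAMC1 differed little. The collagen IV pair was lower at 72 h. Over the 12 probe sets tested, 10 averaged differences were below 0 and their median was -0.48, beside a median of 0.02 over all 27307 tested. limma called 4 of the 12 lower (LAMA1, NID1 in 2 probe sets, NID2), against 1.53% of all probe sets called lower and 2.73% called higher. With the set as replicate block it called 6 lower, adding both LAMB1 probe sets, and 1 higher, LAMB3, against 6.46% and 8.55%. These counts are given beside the background only, since the genes were chosen on this contrast. Every SE in the text is from the fit without the block. For the averaged difference it was 0.21 for LAMA1, 0.21 for LAMB3 and 0.19 for NID2. With the block it was 0.10, 0.10 and 0.17.

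**Figure D1:**
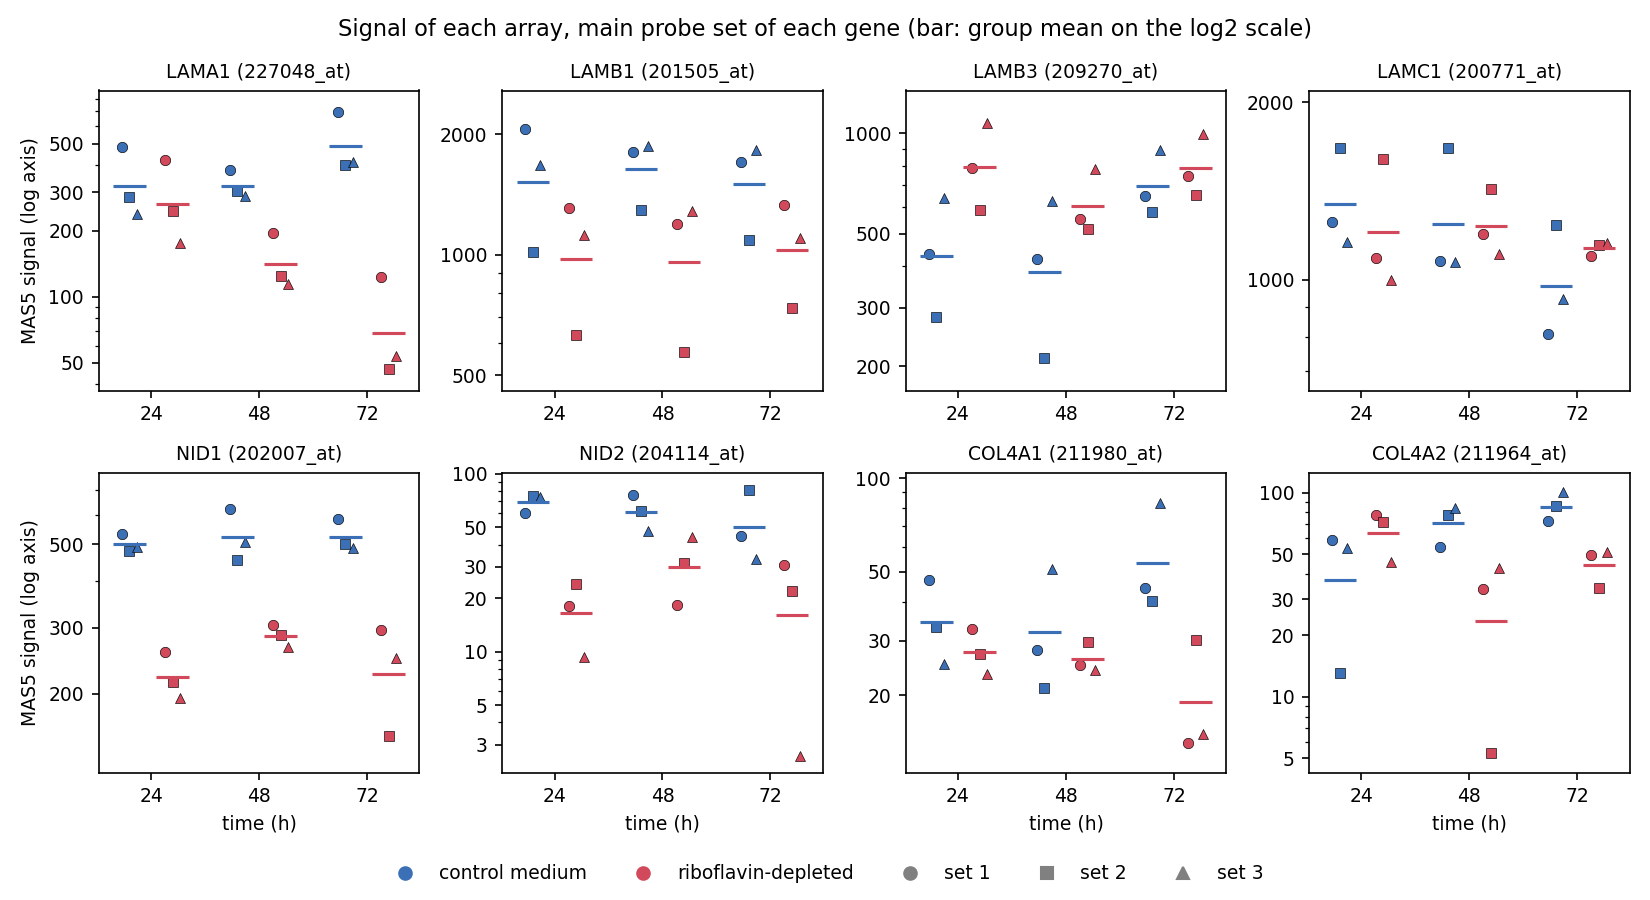
MAS5 signal of each of the 18 arrays (log axis) against time in hours for the main probe set of the 8 measured genes, in blue for control medium and red for riboflavin-depleted medium, with the shape of a point giving the set and each bar the group mean on the log2(signal + 16) scale. The depleted points of NID1 and NID2 lie below the control points at all 3 times, and those of LAMA1 lie furthest below at 72 h, between 46.7 and 122.7.

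LAMA1 encodes the alpha-1 chain, the alpha chain of the laminin trimer best known from early embryos, which also carries binding sites for cell surface receptors. At 24 h its main probe set, 227048_at, gave control signals of 479.6, 285.4 and 239.8 in sets 1, 2 and 3, and depleted signals of 419, 247.2 and 176.5. At 48 h the control signals were 379.9, 303.9 and 288.1 and the depleted signals 195, 124.9 and 114.7. At 72 h the control signals were 697.6, 400.8 and 411.6 and the depleted signals 122.7, 46.7 and 53.9. The media overlapped at 24 h and lay apart at 48 and 72 h, and the depleted array was the lower of its pair in 9 of 9 pairs.

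The LAMA1 difference widened with time, from -0.26 (SE 0.36, 3 arrays against 3) at 24 h to -1.10 at 48 h and -2.57 at 72 h, the last being 5.94-fold lower. Averaged over the times it was -1.31 (SE 0.21, 9 arrays against 9). As the mean with the LAMA1 probe set under the filter, these were -0.80 on average and -1.67 at 72 h. Control cells were highest at 72 h, with a group mean of 8.97 ± 0.44 (SD, n = 3, log2), apart from control cells of 48 h but overlapping those of 24 h, and depleted cells were lowest at 72 h, at 6.40 ± 0.62 (SD, n = 3). Between 24 and 72 h the depleted cells differed by -1.73 (SE 0.36) and the control cells by 0.58 (SE 0.36). limma called the first of these, against 1.13% of all probe sets called lower (5.93% with the set as a block). That call was lost when the depleted array of set 1 (-1.41) or 2 (-1.77) at 24 h, or of set 2 (-1.51) or 3 (-1.59) at 72 h, was left out. The second LAMA1 probe set, 222346_at, did not pass the filter, with signals of 2.2 to 42.4 and 6 of 9 arrays of each medium below 19.62, the signal of the filter.

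LAMB1 encodes the beta-1 chain, the partner of alpha-1 in that trimer. Its main probe set, 201505_at, gave control signals of 2058.1, 1018 and 1672.9 at 24 h in the 3 sets and depleted signals of 1307.3, 629.1 and 1119.9. At 48 h they were 1802.7, 1294.5 and 1870.7 in control and 1192.1, 571.3 and 1287.9 in depleted cells. At 72 h they were 1707.5, 1086 and 1831.7 against 1329.5, 736.6 and 1102.3. The depleted array was lower in 9 of 9 pairs, yet the groups overlapped at 24 and 72 h. Set 2 was low in both media, with a median of 877.3 beside 1518.5 and 1480.4 in sets 1 and 3.

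LAMB1 differed by -0.63 (SE 0.37) at 24 h, -0.76 at 48 h and -0.54 at 72 h, an average of -0.65 (SE 0.21), 1.57-fold lower. In the order of the group means the 3 control groups came first, at 10.57 to 10.69, and the 3 depleted groups last, at 9.93 to 10.03, and neighbours in that order overlapped. Its other probe set, 211651_s_at, was lower in 8 of 9 pairs by -0.51 (SE 0.27) on average. The exception was set 2 at 24 h, where the depleted array read 424.4 and the control array 342.3.

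LAMB3, which encodes the beta-3 chain of the laminin of hemidesmosomes, was higher in depleted cells. At 24 h its probe set 209270_at gave control signals of 435.6, 280.6 and 638.3 and depleted signals of 784.9, 589.8 and 1076.5. The 48 h signals were 420.1, 211 and 627.1 against 552.2, 515.2 and 780.7. The 72 h signals were 648.1, 581.9 and 894.2 against 743.8, 654.1 and 995.9. In 9 of 9 pairs the depleted array was the higher, while the groups overlapped at each time. Set 3 was the brightest in both media.

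The LAMB3 difference narrowed from 0.87 (SE 0.37) at 24 h to 0.64 at 48 h and 0.17 at 72 h, with an average of 0.56 (SE 0.21), 1.47-fold higher. The means of control cells at 24, 48 and 72 h were 8.80 ± 0.57, 8.64 ± 0.76 and 9.48 ± 0.32 (SD, n = 3, log2). Those of depleted cells were 9.66 ± 0.43, 9.28 ± 0.31 and 9.65 ± 0.30, so both media were lowest at 48 h, and neighbours in the order of the 6 groups overlapped.

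LAMC1, the gamma-1 chain shared by most laminin trimers, differed little between the media. Its main probe set, 200771_at, gave control signals of 1251.3, 1673.1 and 1157.8 at 24 h and depleted signals of 1088.2, 1605 and 999.2. Signals at 48 h were 1075.8, 1675.1 and 1069.7 against 1195.8, 1425.5 and 1103.5. Signals at 72 h were 809.5, 1237 and 928.1 against 1095.3, 1144.6 and 1153.6. The groups overlapped at each time, with the depleted array lower in 5 of 9 pairs.

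The averaged LAMC1 difference was 0.01 (SE 0.14), with -0.16 at 24 h and 0.21 at 72 h (SE 0.25 each). The second probe set, 200770_s_at, averaged -0.17 (SE 0.18), with the depleted array lower in 6 of 9 pairs. The probe sets disagreed over the sets of arrays: 200771_at was brightest in set 2, with a median of 1515.25 beside 1091.75 and 1086.6, and 200770_s_at was dimmest there, with 423.1 beside 638.35 and 728.35.

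Both nidogens were lower in depleted cells at all 3 times. NID1 binds the laminin gamma-1 chain and collagen IV. At 24 h its main probe set, 202007_at, gave control signals of 533.6, 478.8 and 491.5 and depleted signals of 257.5, 215.3 and 194.8. By 48 h the signals were 621.7, 453.3 and 507.8 against 305, 286.7 and 266.7, and at 72 h 585.6, 500.3 and 488.8 against 295.7, 153.7 and 248.5. Every one of the 9 control arrays, across all times, lay above every depleted array.

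NID1 differed by -1.12 (SE 0.22) at 24 h, -0.84 at 48 h and -1.16 at 72 h, an average of -1.04 (SE 0.13), 2.06-fold lower. Within a medium it differed little with time, by 0.06 between 24 and 72 h in control and 0.02 in depleted cells (SE 0.22 each). The second probe set, 202008_s_at, had control signals of 90.4 to 226.9 and depleted signals of 44 to 127.2. It was lower in 8 of 9 pairs by -0.81 (SE 0.20), and in the remaining pair, set 2 at 48 h, the depleted array read 127.2 and the control array 105.6. A further probe set, 1561082_at, did not pass the filter, at 1.8 to 29.2, and the mean over all 3 was -0.63 on average.

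NID2, the second nidogen, which can stand in for the first in many basement membranes, had a single probe set, 204114_at. At 24 h the control signals were 60.4, 75 and 74.1 and the depleted signals 18.1, 24 and 9.3. At 48 h they were 76.2, 62 and 47.8 against 18.3, 31.6 and 43.9, and at 72 h 44.5, 81.4 and 33.4 against 30.6, 21.8 and 2.6. The media lay apart at all 3 times, most widely at 24 h, although the set 3 arrays of 48 h read 47.8 and 43.9.

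NID2 differed by -1.39 (SE 0.33) at 24 h, -0.74 at 48 h and -1.05 at 72 h, an average of -1.06 (SE 0.19), 2.09-fold lower. Its signals were low: 4 of the 9 depleted arrays and 0 of the 9 control arrays lay below the filter signal of 19.62. At such signals the pseudocount shortens the difference, and with a pseudocount of 1 the average was -1.65.

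**Figure D2:**
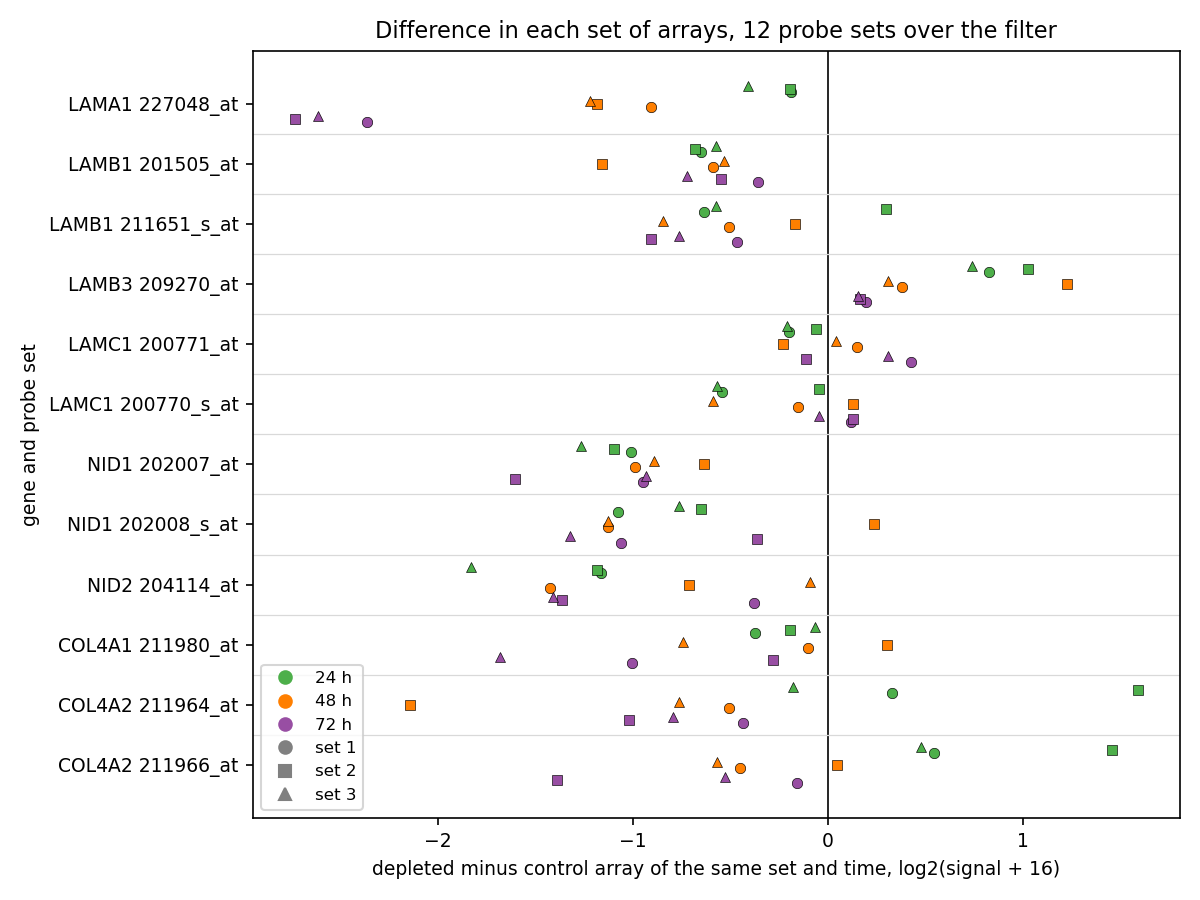
Difference within each pair, depleted minus control, on the log2(signal + 16) scale, for the 12 probe sets over the filter, with colour for the time and shape for the set. All 9 points of LAMA1, of LAMB1 201505_at, of NID1 202007_at and of NID2 lie left of 0, all 9 of LAMB3 lie right of it, and for each COL4A2 probe set the points of 24 h lie right of those of 72 h.

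COL4A1 and COL4A2 encode the alpha-1 and alpha-2 chains, which join as a trimer in nearly every basement membrane. COL4A1, read by 211980_at, had control signals of 46.9, 33.3 and 25.3 at 24 h and depleted signals of 32.6, 27.1 and 23.5. The 48 h signals were 28.1, 21.1 and 51.1 against 25.1, 29.8 and 24.1, and at 72 h 44.3, 40.1 and 83.3 against 14.1, 30.1 and 15. The media overlapped at 24 and 48 h and lay apart at 72 h, where the difference was -0.99 (SE 0.27), 1.98-fold lower. The average was -0.46 (SE 0.16), with 8 of 9 pairs lower. The signals were low, with 2 depleted arrays below 19.62, and the second probe set, 211981_at, stayed below it on every array, at 1.6 to 18.4.

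COL4A2 lay on different sides at different times. Its main probe set, 211964_at, had control signals of 58.8, 13.1 and 53.7 at 24 h and depleted signals of 77.9, 71.6 and 45.7. Signals at 48 h were 54.4, 78.2 and 84 against 33.6, 5.3 and 43, and at 72 h 72.5, 85.7 and 100.4 against 49.5, 34.2 and 51.1. The media overlapped at 24 h and lay apart, with depleted cells lower, at 48 and 72 h. The differences were 0.58 (SE 0.37), -1.14 and -0.75. The set 2 arrays gave the extremes, the low control array of 24 h and the low depleted array of 48 h. Without that set the differences were 0.08 at 24 h, -0.63 at 48 h and -0.61 at 72 h.

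The second COL4A2 probe set, 211966_at, had control signals of 15.2, 4 and 29.4 at 24 h and depleted signals of 29.6, 39 and 47.2, so that every depleted array was above every control array. By 48 h the signals were 51.2, 45.7 and 61.9 against 33.2, 47.7 and 36.6, and at 72 h 46.5, 94.2 and 61.8 against 40, 26.1 and 37.9, with every depleted array below every control array. The difference went from 0.83 (SE 0.28) at 24 h to -0.32 at 48 h and -0.69 at 72 h. The range over time was wider in control cells, with means of 4.93 ± 0.59 (SD, n = 3, log2) at 24 h and 6.34 ± 0.41 at 72 h, while depleted cells were at 5.76 ± 0.24 and 5.65 ± 0.22. In control cells 72 h differed from 24 h by 1.41 (SE 0.28), which limma called with the block only (0.0513% of all probe sets called higher without it and 0.729% with it). The low control arrays of 24 h enter both the 24 h difference and this one. Without set 2 the values were 0.51 at 24 h, -0.34 at 72 h and 0.89 for control cells between those times.

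At 24 h limma called 1 of the 12 probe sets lower, NID1 202007_at, against 0.0403% of all probe sets, a call kept in 2 of 18 fits that left out 1 array (-1.23 to -1.04). With the block it called 3 lower (0.813% of all) and LAMB3 higher (1.55%). At 48 h it called 0 of the 12 lower, against 0.011% of all, and with the block 3 (0.165%). An unadjusted p under 0.05 at 48 h, in either direction, was found for 4 of the 12 and for 2033 of all 27307 probe sets. At 72 h limma called 2 of the 12 lower, LAMA1 and NID1 202007_at, against 1.93%, and with the block 6 (6.9%). The median of the 12 differences was -0.28, -0.59 and -0.73 at the 3 times, beside 0.0039, 0.066 and -6.0e-05 over all tested probe sets. The depletion difference at 72 h minus that at 24 h was -2.31 (SE 0.51) for LAMA1 and -1.52 (SE 0.40) for COL4A2 211966_at, which limma called with the block only (0.293% of all probe sets lower without it and 2.71% with it). All of these counts come from contrasts that led to the choice of the genes, and they carry no support of their own.

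**Figure D3:**
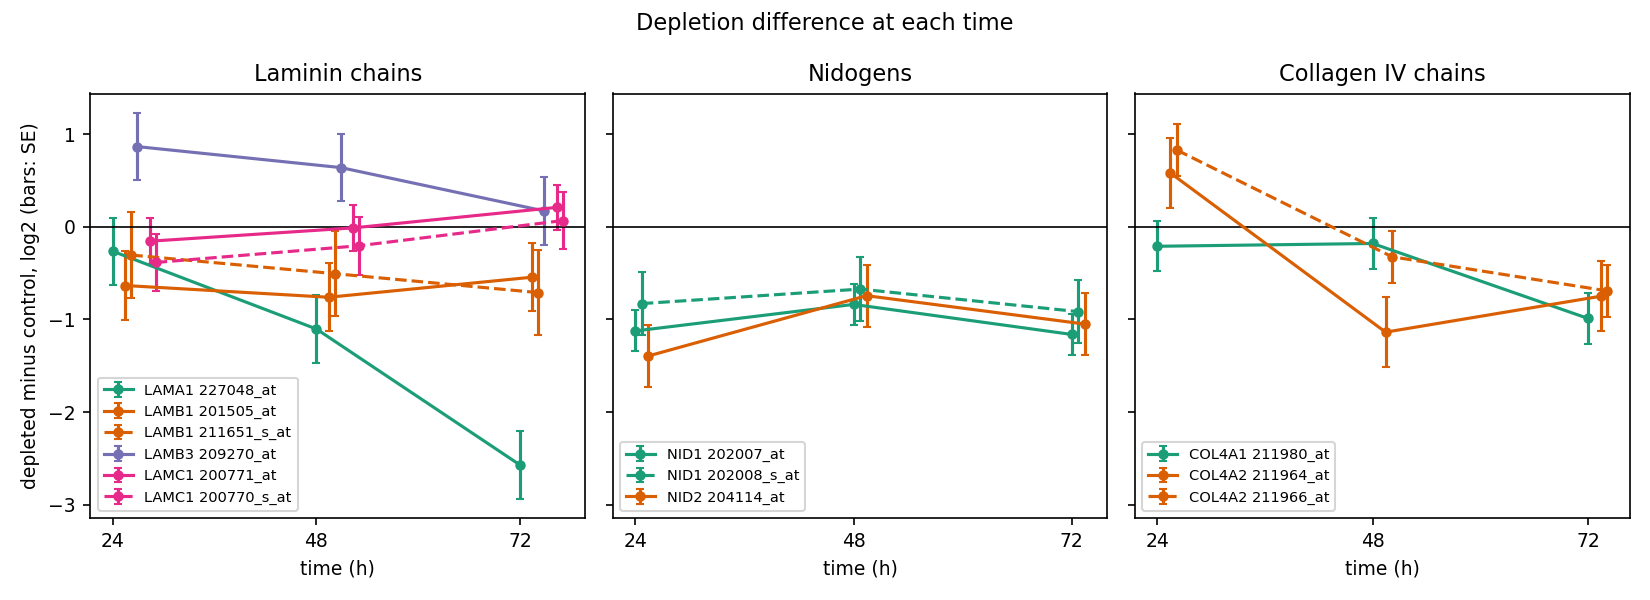
Depleted minus control on the log2(signal + 16) scale at 24, 48 and 72 h, with bars of 1 SE from limma, for the laminin chains, the nidogens and the collagen IV chains, with a dashed line for the second probe set of a gene. LAMA1 goes from -0.26 to -2.57, the nidogens stay between -0.67 and -1.39, and LAMB3 goes from 0.87 to 0.17.

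Across the 18 arrays, with set means taken away, the genes that were lower correlated with each other. Pearson r was 0.85 between NID1 202007_at and NID2, 0.85 between NID1 202007_at and LAMB1 201505_at, 0.80 between NID2 and LAMB1 201505_at, and 0.74 between LAMA1 and NID1 202007_at. LAMB3 ran against them, with r of -0.69 to LAMB1 201505_at, -0.67 to NID1 202007_at and -0.65 to NID2. COL4A1 and COL4A2 211964_at, which share the stretch printed above, had r = 0.33. The 18 arrays hold both media. With group means also taken away, NID1 202007_at with NID2 gave 0.12, NID1 202007_at with LAMB1 201505_at -0.41, NID2 with LAMB1 201505_at 0.26 and LAMA1 with NID1 202007_at 0.48. LAMA1 with NID1 202008_s_at gave -0.36. Probe sets of the same gene then gave -0.35 with each other for NID1, -0.20 for LAMB1, -0.10 for LAMC1 and 0.21 for COL4A2. LAMB3 then gave -0.40 with LAMB1 201505_at, -0.02 with NID1 202007_at and 0.29 with NID2, and COL4A1 with COL4A2 211964_at gave -0.02. They are descriptions over arrays that share groups and sets.

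**Figure D4:**
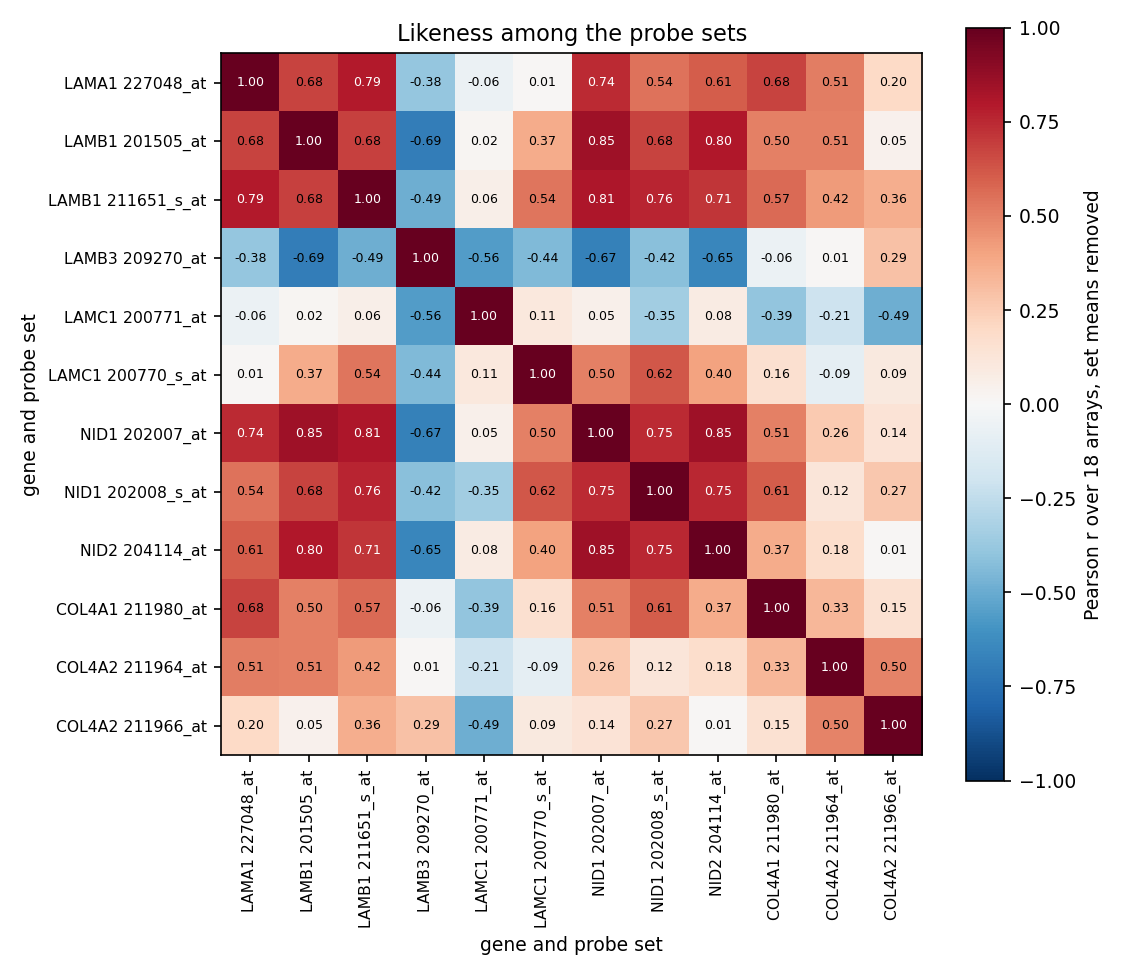
Pearson r between the 12 probe sets over 18 arrays after set means were removed, from blue at -1 to red at 1. LAMA1, LAMB1, NID1 and NID2 form a red block (0.54 to 0.85), LAMB3 is blue against them (-0.38 to -0.69), and the 2 LAMC1 probe sets have r = 0.11 with each other.

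The genes whose pattern over the 18 arrays was most like each of these were taken from 12311 candidates, again with set means removed. For LAMA1 they were DCBLD2 (r = 0.97), HIPK2 (0.95) and ASPM (0.95). For LAMB1 they were NCAPH (0.91), MRPL19 (0.91) and ACAT2 (0.90), and for NID1 ACAT2 (0.97), HMGA2 (0.95) and AFP (0.94), so ACAT2, an enzyme of acetoacetyl-CoA metabolism, was named for both. For NID2 they were MRPL39 (0.89), RSU1 (0.89) and CDC6 (0.88). For LAMB3 they were ZFAS1 (0.96), FMOD (0.95) and BCL2L2 (0.93), and for LAMC1 TFPI (0.91), GLIPR1 (0.90) and FASTKD2 (0.85). For COL4A1 they were DHRSX (0.90), KRTCAP3 (0.89) and LSS (0.86), and for COL4A2 COL5A2 (0.90), UQCRB (0.84) and GUSB (0.84). With group means removed too, these r ranged from 0.18 for LAMB1 with NCAPH to 0.89 for COL4A2 with UQCRB.

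Other genes of the same matrix, from lists drawn up by function, were read with the test. The lists too were chosen with earlier results of these data known, so their p-values are no independent support. Of the 4 other collagen IV chains 2 passed the filter, and COL4A3 and COL4A4 did not. COL4A5, the alpha-5 chain, was lower in depleted than in control cells by 0.78 on average (SE 0.11, adjusted p = 0.000692, limma) and by 1.19 at 72 h (SE 0.19, adjusted p = 0.00186). Its lowest, median and highest signals at 72 h were 244.4, 279.7 and 286.1 in control cells and 92.8, 111.1 and 126.1 in depleted cells, with no overlap. As the mean with its probe set under the filter, the average was -0.42 and was not called. COL4A6, the alpha-6 chain that pairs with it, was at -0.47 (SE 0.15, adjusted p = 0.0968, limma), and was called with the block (adjusted p = 0.0341). Among all genes tested limma called 2.16% lower and 2.48% higher on average (8.81% and 8.4% with the block), and 2.47% lower and 1.92% higher at 72 h.

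Of 6 other laminin chains with a probe set 3 passed the filter, with LAMA2, LAMB4 and LAMC3 below it. In the averaged difference limma called 0 of these 3, with 0 at an unadjusted p under 0.05 and 0 with the block. At 48 h it also called 0, with 1 at an unadjusted p under 0.05, LAMA4 at 0.74 (SE 0.26, adjusted p = 0.507), and 0 with the block. On average LAMA4 was at 0.30 (SE 0.15), LAMA5, the main alpha chain of adult epithelia, at -0.13 (SE 0.38) and LAMB2 at 0.02 (SE 0.17). LAMA5 varied widely between arrays, from 323.3 to 2130.9.

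Of 20 other basement membrane components 14 were tested, and limma called 2 lower and 1 higher in depleted cells. Those called lower were FREM2, at -0.97 (SE 0.14, adjusted p = 0.000942, limma), and FRAS1, at -0.69 (SE 0.16, adjusted p = 0.021), which encode proteins of 1 complex that anchors epithelium to the matrix below it. At 72 h FREM2 was at -1.50 (adjusted p = 0.0021), with control signals of 198.4, 200.3 and 201.7 and depleted signals of 41.8, 64.6 and 79.6 in rising order. FRAS1 was at -1.06 at 72 h (SE 0.28, adjusted p = 0.0392), a call kept in 11 of 18 fits that left out 1 array. A further FRAS1 probe set, 220910_at, was at -0.12 (adjusted p = 0.795), and the mean over the FRAS1 probe sets was -0.15 and was not called. SPARC, a collagen-binding matricellular protein, was higher in depleted cells by 0.78 (SE 0.21, adjusted p = 0.048), a call kept in 3 of 18 fits that left out 1 array (0.63 to 0.89). Its signals were low, at 4.4 to 66.8 on control and 37.7 to 116.8 on depleted arrays. The value of 0.63 came without the set 2 control array of 48 h. With the block 3 of the 14 were called lower, NTN4 being added, and 3 higher, TINAGL1 and TGFBI being added. The median of the list was -0.24, beside a median near 0 over the 12319 genes.

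Of 11 receptors tested, ITGA2, the alpha-2 integrin that binds collagens and laminins, was higher in depleted cells by 1.33 at 72 h (SE 0.23, adjusted p = 0.00312, limma). Between 24 and 72 h ITGA2 differed by -1.10 (SE 0.23) in control cells and by 0.33 (SE 0.23) in depleted cells. Its control signals ran from 485.3 to 598.8 at 24 h and from 207.7 to 267.5 at 72 h. The depleted signals ran from 423 to 630.7 and from 486.3 to 777.5, so the media overlapped at 24 h and lay apart at 72 h. The change of its depletion difference from 24 to 72 h was 1.43 (SE 0.32, adjusted p = 0.0545, and 0.00283 with the block). The call of its averaged difference of 0.50 (adjusted p = 0.0405) was kept in 4 of 18 fits that left out 1 array, and a second probe set, 205032_at, was at 0.74 at 72 h (adjusted p = 0.203). ITGA6, the alpha chain of the main laminin receptor, was at 0.46 (adjusted p = 0.277, and 0.0155 with the block). ITGA7, at -0.83 (SE 0.24 without the block), was called lower with the block (adjusted p = 0.0272). Its second probe set, 209663_s_at, was at -0.22 (adjusted p = 0.289 with the block). Without the block 1 of the 11 was called.

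Of 18 tested genes that modify, fold or export collagen, P3H2, a prolyl hydroxylase that acts on collagen IV, was lower in depleted cells by 0.64 on average (SE 0.16, adjusted p = 0.0376, limma) and by 1.12 at 72 h (adjusted p = 0.035). Its signals at 72 h were 353.8, 368.8 and 477.5 in control cells and 122.2, 207.2 and 207.9 in depleted cells, in rising order. Between 24 and 72 h P3H2 differed by 0.93 (SE 0.28) in control cells and by -0.14 (SE 0.28) in depleted cells. The averaged call was kept in 6 of 18 fits that left out 1 array and the 72 h call in 12, and as the mean over its probe sets the gene was at -0.38 and was not called. With the block 3 of the 18 were called lower, P4HA2 and PPIB being added. The median of the list was -0.09.

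**Figure D5:**
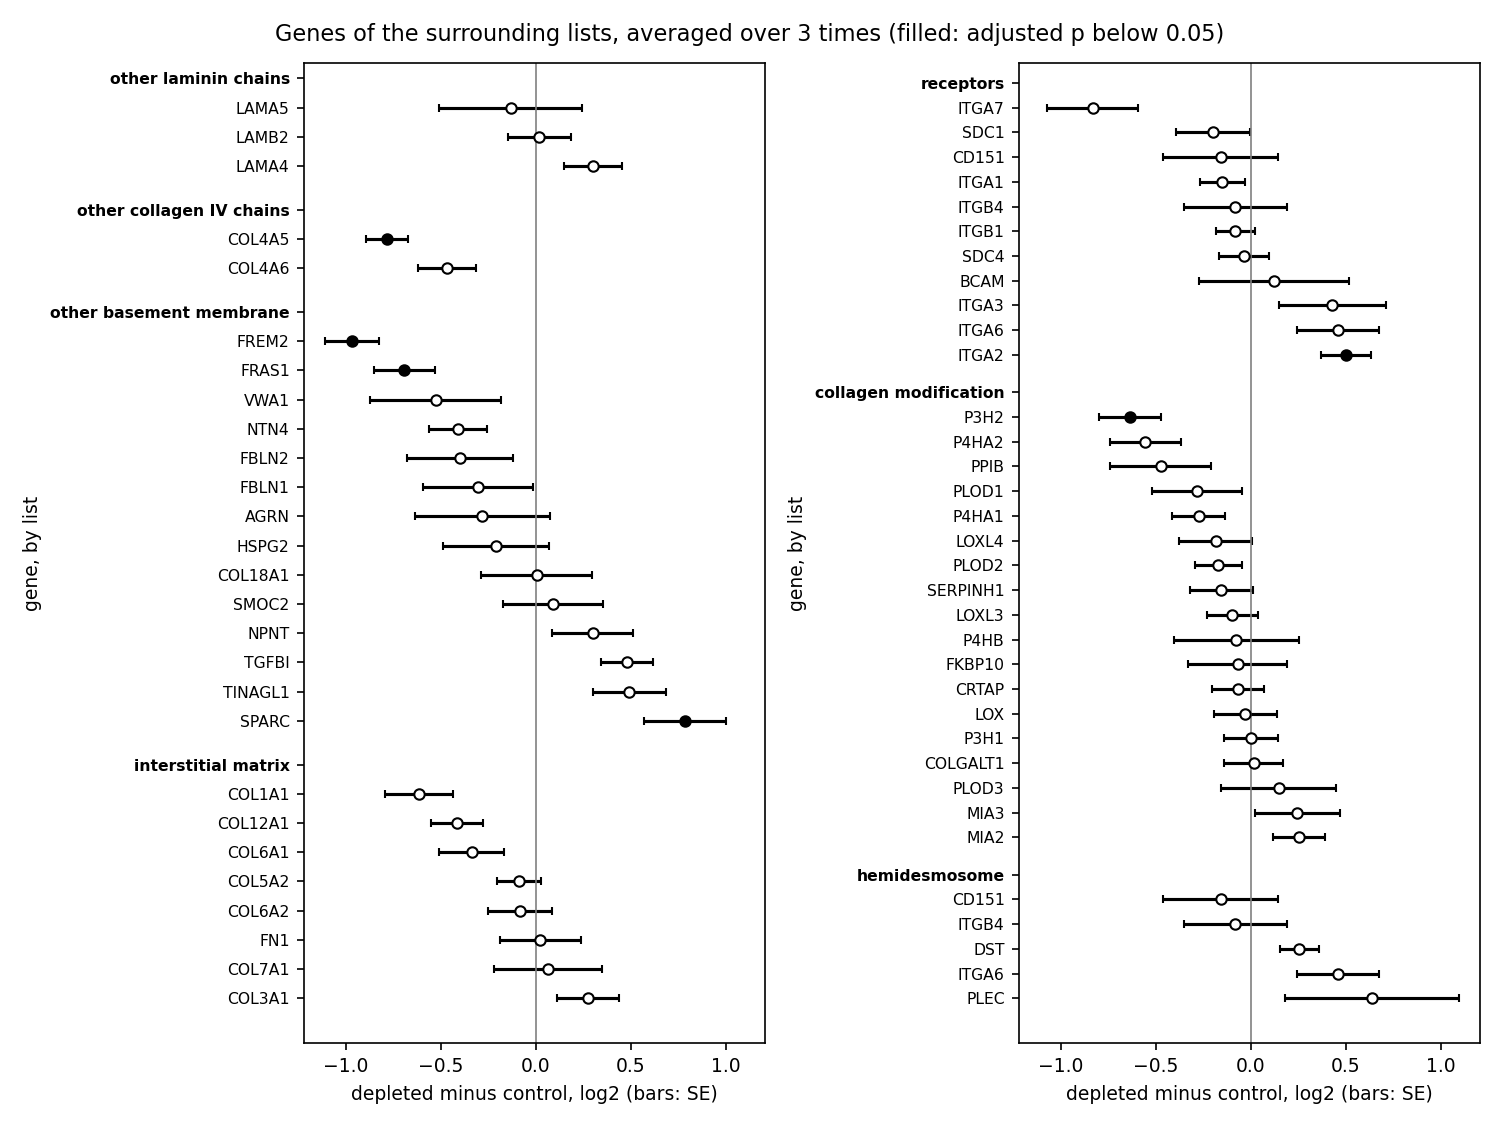
Depleted minus control averaged over the 3 times (log2(signal + 16) scale, bars of 1 SE from limma) for each tested gene of 7 surrounding lists, with filled points where the adjusted p was below 0.05. COL4A5, FREM2, FRAS1 and P3H2 lie left of 0 as filled points, and SPARC and ITGA2 lie right of it.

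Of 5 hemidesmosome genes tested limma called 0 in the averaged difference, with 2 at an unadjusted p under 0.05. With the block 3 were called higher: ITGA6, PLEC at 0.64 (SE 0.46 without the block, adjusted p = 0.0486 with it) and DST at 0.26 (SE 0.10 without the block, adjusted p = 0.0433 with it). PLEC signals ran from 4.1 to 160.2, and its second probe set, 201373_at, was at 0.65 and was not called (adjusted p = 0.26 with the block). At 72 h the DST probe set was at -0.29. With the block as a random term, whose estimated correlation was 0.381, ITGA6 and DST were called and PLEC was not. Of 8 interstitial matrix genes limma called 0 without the block, with 2 at an unadjusted p under 0.05. With the block 2 were called lower, COL1A1 (-0.61, SE 0.18 without the block, adjusted p = 0.0223 with it) and COL12A1 (-0.41, SE 0.14 without the block, adjusted p = 0.034 with it). The 3 other COL1A1 probe sets tested were at -0.31, -0.40 and -0.17 and were not called (adjusted p = 0.204, 0.0969 and 0.711 with the block). Of the 5 fibroblast markers tested limma called 0, with 2 at an unadjusted p under 0.05. With the block COL1A1 was called lower and LUM higher (0.35, SE 0.16 without the block, adjusted p = 0.0308 with it). Whether they had a part in the lower levels of the basement membrane genes was not tested. Of 8 epithelial markers limma called 0, with 0 at an unadjusted p under 0.05 and 0 with the block, and their median was -0.08.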

How the data were processed

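The deposited values were microarray intensity signals per probe set, made with MAS5 per the submitters' processing notes (version not given in the sources used here). Every array has a trimmed mean of 100. Signals were taken as log2(signal + 16), computed here from the deposited intensity values. Tests left out 62 control probe sets and kept those whose mean was at or above the median of all (a log2 value of 5.155). All 18 arrays were fitted in limma 3.58.1 (R 4.3.3), with 1 mean for each of 6 groups and no block, and p-values adjusted by Benjamini-Hochberg over the 27307 tested, with a threshold of 0.05. The fit was tested on simulated data. Figures were drawn with matplotlib 3.10.9.

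The sets pair the arrays: with group means removed, r was 0.302 to 0.602 for the 45 pairs of arrays from one set, and -0.754 to 0.163 for the 108 others. The set was therefore also fitted as a replicate block. Fits that left out 1 array used no block, and all SEs printed are from the fit without it.

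Symbols came from the platform annotation: 41091 probe sets had 1 symbol, 1801 several and 11721 none. The main probe set of a gene was that with the highest mean. Named were all measured genes under study, all measured other laminin and collagen IV chains, of each further list the genes called, or else up to 3 with the smallest p, and the 3 genes most like each gene. Genes called only with the block are named after their values were seen. The genes and lists were chosen with earlier results of these data known. Alternatives were pseudocounts of 1 and 64, other filters and scalings, both forms of the block, leaving out each array or set 2, and the mean over a gene's probe sets. Promoter sequences came from RefSeq (GRCh38.p14).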

Additional observations from a re-analysis of the deposited data

Results flagged for a closer look

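For COL4A2 211966_at the depletion difference took opposite directions at 24 and 72 h in all 3 sets of arrays: every depleted array was above its control array at 24 h and below it at 72 h. The difference at 72 h minus that at 24 h was -1.52 on the log2 scale, and it is a description: it was not tested on values other than those that led to the choice of the gene. The signals were low, with 2 control arrays of 24 h below the filter signal of 19.62. Without set 2 the differences of 211966_at were 0.51 at 24 h and -0.34 at 72 h. In the main COL4A2 probe set, 211964_at, the depleted array of set 3 was below its control array at 24 h too (-0.18). Its 24 h difference was 0.08 without set 2.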

How the results depend on the processing

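The averaged and 72 h differences of LAMA1, NID1 202007_at and NID2 kept their direction under every alternative run. Of the genes under study, limma called 4 probe sets lower on average, and 3 to 4 when 1 array was left out. At 24 h the 1 call fell to 0 with a pseudocount of 1, without the filter, with arrays centred on the 75th percentile and without set 2, and ran from 0 to 1 when 1 array was left out. At 72 h 1 was called lower without set 2.

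With the replicate block as a fixed term, 1 was called higher on average, 3 lower and 1 higher at 24 h, 3 lower at 48 h and 6 lower at 72 h. With the replicate block as a random term, 7 were called lower and 1 higher on average, 2 lower at 24 h, 2 at 48 h and 5 at 72 h. Over all probe sets the fixed replicate block moved the count from 1162 to 4097 on average (3618 random), from 59 to 646 at 24 h (523), from 22 to 189 at 48 h (181) and from 1136 to 3631 at 72 h (3253). It moved the count for 72 against 24 h from 32 to 332 in control (260) and from 565 to 2812 in depleted cells (2437), and for the change of the depletion effect between times (F-test) from 85 to 953 (864).

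Other settings moved these counts too. At 24 h they were 93 with a pseudocount of 64, 39 without the filter, 25 with arrays centred and 1 without set 2. At 48 h they were 8 without the filter, 7 with arrays centred and 2 without set 2, and at 72 h 717 without set 2. For 72 against 24 h in control cells they were 60 with a pseudocount of 64, 58 with the filter at the 75th percentile, 49 after quantile normalization and 6 without set 2, and in depleted cells 330 without the filter, 365 with arrays centred and 109 without set 2. For the change between times they were 199 with a pseudocount of 64, 41 without the filter, 174 with the filter at the 75th percentile, 49 with arrays centred and 5 without set 2. Leaving out 1 array gave 20 to 61 at 24 h, 3 to 20 at 48 h, 576 to 1210 at 72 h, 14 to 40 and 123 to 592 for 72 against 24 h in control and depleted cells, and 20 to 90 for the change between times. The causes were not tested.

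With the mean over a gene's probe sets, those under the filter included, LAMA1 was at -0.80 on average and -1.67 at 72 h, NID1 at -0.63 and -0.75, COL4A1 at -0.57 at 72 h and COL4A6 at -0.10 on average. In that setting COL4A5 (-0.42), FRAS1 (-0.15) and P3H2 (-0.38) were no longer called on average, nor FRAS1 (-0.11) and P3H2 (-0.56) at 72 h. The 72 h call of FRAS1 was lost in 7 fits that left out 1 array: the set 1 control array of 24 h (-1.06), the control arrays of 72 h in sets 1 (-0.82) and 3 (-1.01), the depleted arrays of 72 h in sets 1 (-1.08), 2 (-1.08) and 3 (-1.04), and the set 3 depleted array of 48 h (-1.06). The P3H2 call at 72 h was lost without any 1 of the 6 arrays of that time (-0.88 to -1.23). NID1 202008_s_at lost its averaged call in 8 fits that left out 1 array (-0.71 to -0.78). Low signals limit what can be said of NID2 and the collagen IV genes.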

Other observations

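DST, which encodes plakin proteins that tie the cytoskeleton to hemidesmosomes, was read by 5 tested probe sets with different values. The main one, 215016_x_at, was at -1.19 for 72 against 24 h in depleted cells (SE 0.18, adjusted p = 0.00327, limma) and was at -0.29 between the media at 72 h (adjusted p = 0.463). The probe set 204455_at was higher in depleted than in control cells by 0.55 on average (SE 0.13, adjusted p = 0.0233) and by 1.23 at 72 h (SE 0.23, adjusted p = 0.00537). The probe set 232098_at was higher by 0.85 on average (SE 0.21, adjusted p = 0.0261). These probe sets were chosen after their values were seen. FBLN1, a fibulin of the basement membrane, was likewise called through a second probe set, 202994_s_at, at -0.46 on average (SE 0.12, adjusted p = 0.0424) and -0.93 at 72 h (adjusted p = 0.0202). PECAM1 was called through 208981_at, at -0.63 (SE 0.16, adjusted p = 0.0305), while its main probe set was at 0.17 (SE 0.15).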
